A study of Mus with 8 samples.

Results

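Mouse skin treated with minoxidil was set against mouse skin treated with microsphere keratin. The comparison rests on 4 of the 8 arrays of the study, the 2 titled for minoxidil and the 2 titled for microsphere keratin, chosen by those titles. Minoxidil is a vasodilator applied to the scalp against hair loss, and the labels call it the positive control of a hair growth experiment. Microsphere keratin is keratin, the structural protein of hair and epidermis, prepared as microspheres. Both were applied to the skin at 1% for 20 days in groups of 5 male C57BL/6 mice. The mice were 6 weeks old before an acclimatisation of 7 days, and their hair was removed before treatment. The remaining groups, 1% keratin and MilliQ water (called untreated here), had 2 arrays each and served to estimate the spread and to place the values. All RNA came from treated skin with its hair follicles. The labels do not say whether the 2 arrays of a group are separate animals, pools or repeat hybridisations. The p-values below therefore measure only the spread between arrays, which may be technical, and so few arrays give low precision.

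The tissue is a mixture. Whole skin holds the epidermis, the hair follicle with its dividing matrix and keratinising shaft, the sebaceous gland, the dermis with its fibroblasts and immune cells, fat and a thin sheet of skeletal muscle, the panniculus carnosus. The sebaceous gland makes sebum from fatty acids that it elongates, desaturates and esterifies to wax esters, triglycerides and cholesterol esters. Hair shafts are built from hair keratins and from keratin-associated proteins, which cross-link the keratin filaments. In such bulk samples, fewer cells of a type and less RNA per cell cannot be told apart.

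Minoxidil array 1 carried little mouse signal. Over all probesets its correlation with any other array was r = 0.390 to 0.475, where minoxidil array 2 correlated at 0.958 with microsphere array 1 and at 0.978 with microsphere array 2. The 3′ beta-actin control probeset read 47.2 and 1883 in minoxidil arrays 1 and 2, against 1448 and 1679 in microsphere arrays 1 and 2. The 3′ Gapdh control read 196 and 1605 in the minoxidil arrays, against 1273 and 1006 in the microsphere arrays. Outside these groups, untreated array 1 was low in both controls (656 and 298) and keratin array 1 in Gapdh (630). Basal keratinocyte markers, which any skin sample should hold, summed to 759 and 1848 over 11 genes in minoxidil arrays 1 and 2, against 1765 and 1530 in the microsphere arrays. Minoxidil array 2 is therefore given first, against each microsphere array, and minoxidil array 1 is given apart.

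Minoxidil array 2 lay between the microsphere arrays for much of the transcriptome. The log2 difference between minoxidil array 2 and microsphere array 1 had an SD of 0.28 over the 11235 genes tested, and that to microsphere array 2 an SD of 0.24. The 2 microsphere arrays differed from each other by more, with an SD of 0.35. Of the genes tested, 33.8% were higher in minoxidil array 2 than in both microsphere arrays and 17.3% were lower than in both. Between the microsphere arrays lay 3919 genes above array 1 and below array 2, and 1569 below array 1 and above array 2. The median log2 difference was 0.11 to microsphere array 1 and -0.01 to microsphere array 2.

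No gene passed the test. In a limma fit of 7 arrays without minoxidil array 1, 0 genes were higher (0%) and 0 lower (0%) at a Benjamini-Hochberg adjusted p below 0.05, and the lowest adjusted p was 0.9999. At an unadjusted p below 0.05 there were 36 genes, all higher in minoxidil array 2, against 562 if p-values were spread evenly. The fit had 3 residual degrees of freedom and assumed that the lone minoxidil array varies like the other groups. With both minoxidil arrays and 4 residual degrees of freedom, limma again called 0 genes higher and 0 lower, with 11 and 17 at an unadjusted p below 0.05. The smallest two-sided p of an exact permutation test of 2 arrays against 2 is 0.333, so none was used. The genes below are therefore described by their intensities, on a linear scale in arbitrary units, and by log2 differences, none of which passed. Until minoxidil array 1 is taken up, values with minoxidil are those of its array 2, and paired microsphere values are those of arrays 1 and 2 in that order. List counts above or below both microsphere arrays are to be read beside the 33.8% and 17.3% of all genes tested.

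By size, 7 genes (0.0623% of those tested) were at least 2-fold higher in minoxidil array 2 than in both microsphere arrays, and 0 (0%) were at least 2-fold lower. These 7 were Fa2h, Elovl6 and Elovl4 of lipid synthesis, Smpx and Fabp3 of muscle, the membrane protein gene Itm2a, and Defb8, a beta-defensin. Just below that limit, by the smaller of both differences, stood Mlf1 and Txlnb at 0.99 on the log2 scale and Fam134b at 0.96.

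**Figure D1:**
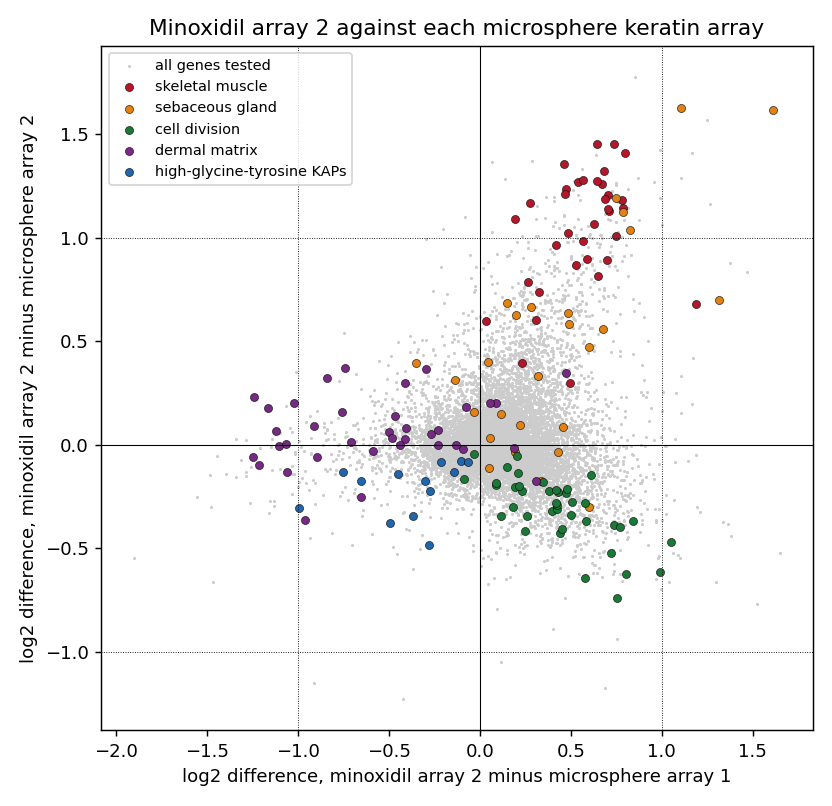
Log2 difference of minoxidil array 2 to microsphere array 1 (horizontal) and to microsphere array 2 (vertical), 1 point per gene, with genes of 5 lists coloured and dotted lines at 2-fold. Skeletal muscle and sebaceous gland genes lie mostly upper right and high-glycine-tyrosine keratin-associated proteins (KAPs) lower left, while cell division genes lie lower right and dermal matrix genes to the left.

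Genes of sebum lipid synthesis were higher in minoxidil array 2. Their list, like all 40, was chosen with earlier results of these data known, so its counts only describe. Of the 27 tested sebaceous gland genes, 19 were higher in minoxidil array 2 than in both microsphere arrays and 0 were lower than in both. Of all genes tested, 33.8% were higher than in both and 17.3% lower than in both. The median log2 difference of the list was 0.34 to microsphere array 1 and 0.40 to microsphere array 2. In the 7-array fit 0 of the 27 passed, and 8 had an unadjusted p below 0.05. For 17 of the 27, minoxidil array 2 was the highest of the 7 arrays, which held for 1679 of all 11235 genes.

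Fa2h, the fatty acid 2-hydroxylase that makes the hydroxylated fatty acids of sebum and of sphingolipids, read 277 in minoxidil array 2, against 90.5 and 90.3 in microsphere arrays 1 and 2. The microsphere arrays were almost equal, and the log2 difference of the fit was 1.61 ± 0.40 (SE), with a limma adjusted p of 0.9999. Keratin arrays 1 and 2 read 101 and 58.8 for Fa2h, and untreated arrays 59.4 and 62.1. Elovl4, which elongates very long fatty acids, read 234 in minoxidil array 2, against 109 and 75.5 in the microsphere arrays. Keratin array 1, at 162, lay nearer to minoxidil array 2 than either microsphere array did, while keratin array 2 read 52.7. Elovl6, which elongates palmitate to stearate, stands in the fatty acid synthesis list below and not in the sebaceous list. It read 188 in minoxidil array 2, against 78.1 and 83.7 in the microsphere arrays. None of the 4 other arrays of that fit was above 86.9 for Elovl6. Both probesets of Elovl4 and both of Elovl6 were above both microsphere arrays.

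Further sebum genes differed by less. Elovl5, an elongase of polyunsaturated fatty acids, read 355 in minoxidil array 2, against 201 and 173 in the microsphere arrays. Scd1, the desaturase that makes oleate, read 495 in minoxidil array 2, against 286 and 227 in the microsphere arrays, with 367 in keratin array 1. Elovl3, an elongase of sebocytes and brown fat, read 68.4 with minoxidil, against 48.8 and 45.7 with microsphere keratin. Cidea, a lipid droplet protein of the same cells, read 58.8 with minoxidil, against 42.0 and 37.8 with microsphere keratin. Elovl3 and Cidea stand in the brown fat list, where 6 of 8 tested genes were above both microsphere arrays, but the sebaceous list holds them too. Defb8, which stands in none of the lists, read 102 in minoxidil array 2 and 47.2 and 41.7 in the microsphere arrays. Keratin array 1, however, read 104, above the minoxidil array.

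Other sebaceous genes were singled out after their values were seen. Soat1, which esterifies cholesterol, read 104 in minoxidil array 2, against 41.9 and 64.2 in the microsphere arrays. Sdr16c6, a short-chain dehydrogenase, read 108 with minoxidil, against 64.1 and 47.1 with microsphere keratin, and its neighbour in the family Sdr16c5 read 70.3 with minoxidil, against 44.0 and 47.7 with microsphere keratin. Acsbg1, an acyl-CoA synthetase, read 58.9 with minoxidil, against 38.8 and 42.4 with microsphere keratin. Genes without such a difference included Pparg, the lipid regulator of sebocytes, at 38.6 with minoxidil, against 39.5 and 34.5 with microsphere keratin, and Fabp5, a fatty acid carrier, at 969 with minoxidil, against 639 and 1193 with microsphere keratin. Pparg was thus near the lower end of the intensities, and Fabp5 lay between the microsphere arrays.

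**Figure D2:**
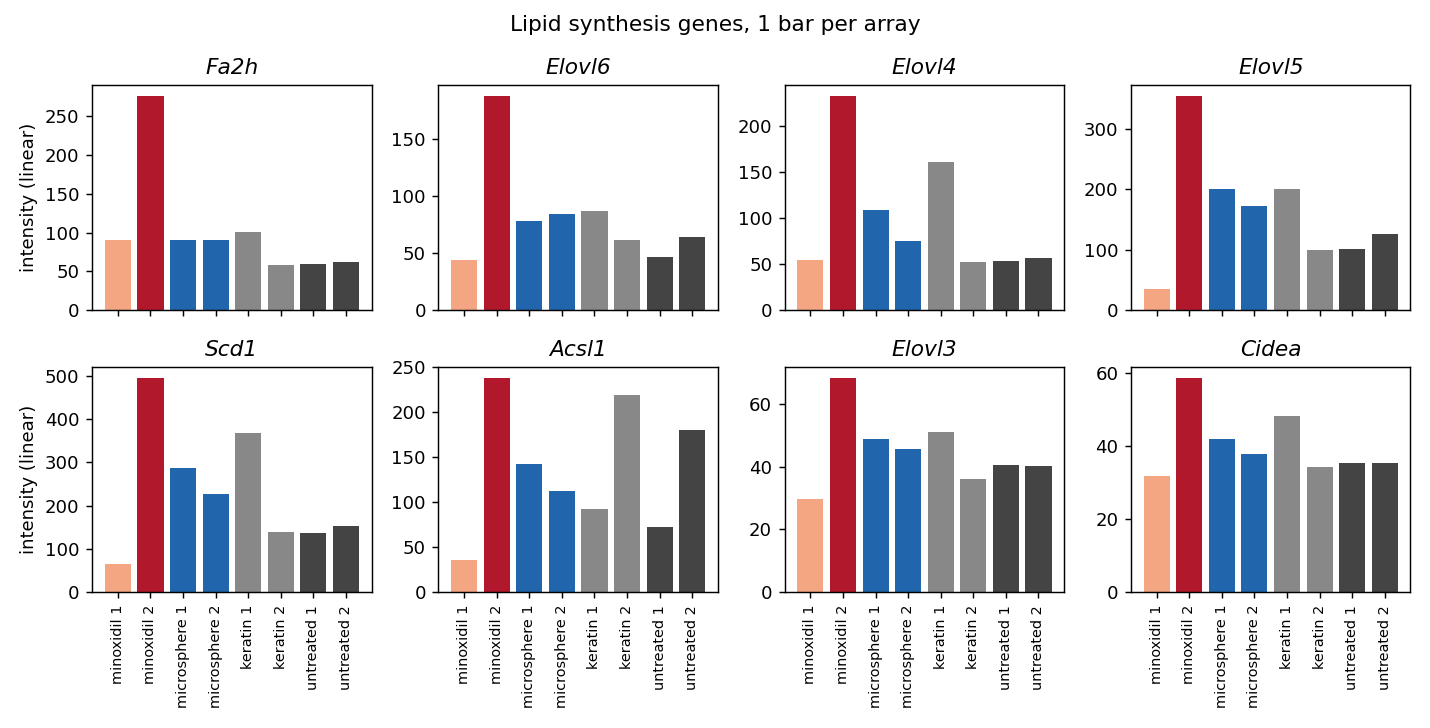
Linear intensity (vertical, arbitrary units) of 8 lipid synthesis genes, 1 bar per array and no error bars, with minoxidil arrays at the left. Minoxidil array 2 is the highest bar in all 8 panels, minoxidil array 1 is low in most, and keratin array 1 comes next after minoxidil array 2 in 7 panels, level with microsphere array 1 for Elovl5, while keratin array 2 does so for Acsl1.

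Fatty acid and triglyceride synthesis, a list that shares Scd1 and Elovl5 with the sebaceous one, was higher in the same way. Of its 34 tested genes, 26 were above both microsphere arrays and 1 was below both, where 33.8% and 17.3% of all genes were. The 1 below both was the desaturase gene Scd2, singled out after its values were seen. The median log2 difference was 0.39 to microsphere array 1 and 0.20 to microsphere array 2. Acsl1, which activates long fatty acids and serves muscle and fat as well as skin, read 238 in minoxidil array 2, against 142 and 113 in the microsphere arrays. Keratin array 2 read 219 for Acsl1, close to the minoxidil array. Scd2 read 74.9 in minoxidil array 2, against 91.6 and 105 in the microsphere arrays.

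Cholesterol synthesis depended on which microsphere array was used. Its 22 tested genes had a median log2 difference of 0.35 to microsphere array 1 and of 0.01 to microsphere array 2, and 10 were above both. Cyp51, a demethylase of this pathway, read 62.8 with minoxidil, against 33.2 and 52.7 with microsphere keratin.

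Peroxisomes shorten and modify very long fatty acids. Of 30 tested peroxisome genes, 23 were above both microsphere arrays and 2 below both, with medians of 0.15 and 0.17 on the log2 scale. For all genes the shares were 33.8% and 17.3%. Cat, the catalase that breaks down hydrogen peroxide, read 289 in minoxidil array 2, against 184 and 172 in the microsphere arrays. Hsd17b4, a peroxisomal enzyme of beta-oxidation, read 117 with minoxidil, against 82.6 and 87.2 with microsphere keratin. Keratin array 2, at 273 for Cat and 101 for Hsd17b4, was again close.

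The authors' deposited tables give log2 values for the number 2 arrays on another scale, where differences are larger. In the authors' deposited tables Fa2h had 8.59 for minoxidil and 6.46 for microsphere keratin. Elovl6 had 7.51 for minoxidil and 5.94 for microsphere keratin in the authors' deposited tables. In the authors' deposited tables Itm2a had 8.47 for minoxidil and 6.36 for microsphere keratin, and Defb8 had 5.99 for minoxidil and 3.45 for microsphere keratin. Both of these tables list 2536 probesets in common. Across them, the value table's log2 differences had a slope of 0.447 on those in the authors' deposited tables. The sign was the same for 87.3%. These tables hold 1 array of each group, so they add no replicate.

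Skeletal muscle genes were all higher in minoxidil array 2 than in both microsphere arrays, 35 of 35 tested, where 33.8% of all genes were. Their median log2 difference was 0.59 to microsphere array 1 and 1.13 to microsphere array 2, the largest median of the 40 lists against microsphere array 2. None passed the test, and none had an unadjusted p below 0.05. The fit's median difference of 0.85 became 0.57 after quantile normalization and 0.29 with the array number as a block.

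Acta1, the actin of skeletal muscle, read 3353 in minoxidil array 2, against 2054 and 1453 in the microsphere arrays. Keratin arrays 1 and 2 read 909 and 2369 and untreated arrays 353 and 2254, so the spread within each of those groups was wider than the difference described. Myl1, a fast myosin light chain, read 2463 in minoxidil array 2, against 1431 and 1084 in the microsphere arrays. Myot, a protein of the muscle Z-disc, read 499 with minoxidil, against 287 and 188 with microsphere keratin, and Des, the muscle intermediate filament, 673 with minoxidil, against 390 and 305 with microsphere keratin. For Myot and Des, keratin array 2 read more than the minoxidil array, at 521 and 747. The fit's difference for Acta1 was 0.96 ± 0.98 (SE) on the log2 scale.

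Smpx, Fabp3, Tpm1 and Txlnb, which led by size without standing in the muscle list, followed the same arrays. Smpx, a small protein of striated muscle, read 445 in minoxidil array 2, against 198 and 167 in the microsphere arrays, with 331 in keratin array 2 and 344 in untreated array 2. Fabp3, the fatty acid binding protein of heart and muscle, read 144 with minoxidil, against 72.0 and 69.2 with microsphere keratin, with 204 in keratin array 2 and 148 in untreated array 2, both above the minoxidil array. Tpm1, a tropomyosin of striated and smooth muscle, read 1705 with minoxidil, against 928 and 804 with microsphere keratin, with 3 of its 4 probesets above both microsphere arrays and the remaining 1 below both. Txlnb, a muscle taxilin, read 151 with minoxidil, against 76.1 and 66.0 with microsphere keratin, with 186 in keratin array 2. Itm2a read 295 in minoxidil array 2, against 124 and 99.3 in the microsphere arrays. It was above all other arrays there, of which untreated array 2 came next at 147. Keratin array 2 read 108 for Itm2a, below microsphere array 1, so Itm2a did not follow the muscle genes across the arrays.

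The muscle list as a whole varied between arrays of one group. Its summed intensity was 38595 in minoxidil array 2, against 26246 and 19789 in microsphere arrays 1 and 2. Keratin arrays 1 and 2 summed to 12576 and 34454, and untreated arrays 1 and 2 to 8585 and 32511. Minoxidil array 2 was the highest of these 7 sums, and keratin array 2 and untreated array 2 stood above both microsphere arrays. How much muscle each piece of skin held was not recorded in the labels, and its part in the result was not tested.

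Oxidative phosphorylation, the mitochondrial route to ATP that muscle holds in plenty, moved with the muscle list across the arrays. Of 66 tested genes, 59 were above both microsphere arrays and 1 below both, with median log2 differences of 0.34 and 0.55. For all genes the shares were 33.8% and 17.3%. Cox5a, a subunit of cytochrome c oxidase, read 642 in minoxidil array 2, against 360 and 340 in the microsphere arrays. Sdhc, a membrane anchor of succinate dehydrogenase, read 145 with minoxidil, against 90.3 and 88.5 with microsphere keratin, and Sdhd, the other anchor, 124 with minoxidil, against 81.3 and 80.6 with microsphere keratin. Cox7a1, a muscle form of an oxidase subunit, read 238 with minoxidil, against 155 and 130.4 with microsphere keratin. The list's median log2 intensity was 8.27 in minoxidil array 2, against 7.87 and 7.78 in the microsphere arrays, 7.57 and 8.06 in keratin arrays and 6.85 and 8.18 in untreated arrays. The fit's median was 0.16 with the array number as a block and 0.46 without it.

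**Figure D3:**
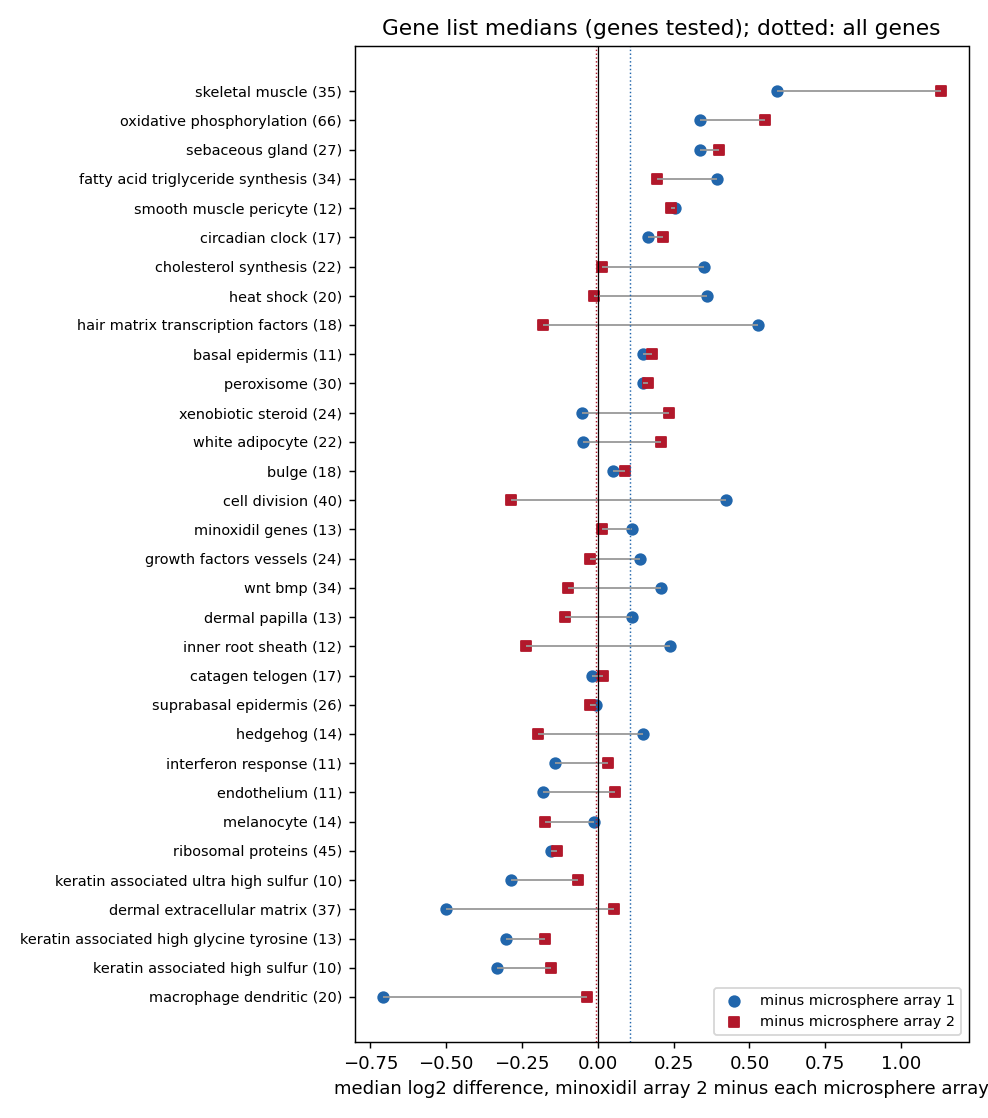
Median log2 difference (horizontal) of minoxidil array 2 to microsphere array 1 (circles) and microsphere array 2 (squares) for lists with at least 10 genes tested, whose number stands beside each name. Lines join both values of a list, and dotted lines mark the medians of all genes at 0.11 and -0.01. Muscle, oxidative phosphorylation and sebaceous gland lie to the right for both arrays, while cell division and hair matrix regulators have symbols on opposite sides of 0.

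Keratin-associated proteins of the hair shaft were lower in minoxidil array 2. All 13 tested high-glycine-tyrosine members were below both microsphere arrays, as were 9 of 10 high-sulfur and 6 of 10 ultra-high-sulfur members, where 17.3% of all genes were. Above both were 0, 0 and 2 members in the same order. The median log2 differences of the high-glycine-tyrosine list were -0.30 to microsphere array 1 and -0.17 to microsphere array 2. Those of the high-sulfur list were -0.33 and -0.16, and those of the ultra-high-sulfur list -0.29 and -0.06. None passed the test or had an unadjusted p below 0.05.

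Krtap8-1 read 221 in minoxidil array 2, against 268 and 309 in the microsphere arrays. Krtap22-2 read 64.4 with minoxidil, against 128 and 79.7 with microsphere keratin, and Krtap16-3 read 37.5 with minoxidil, against 52.8 and 48.7 with microsphere keratin. Among high-sulfur members, Krtap1-5 read 61.6 with minoxidil, against 92.9 and 83.1 with microsphere keratin, and Krtap15 read 61.3 with minoxidil, against 115 and 74.8 with microsphere keratin. Krtap17-1, counted with the ultra-high-sulfur members, read 117 with minoxidil, against 146 and 158 with microsphere keratin. Most of these intensities were low, and single members are uncertain where a probe matches near-identical copies in the family.

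The other groups place these values. For the high-glycine-tyrosine list the median log2 intensity was 5.36 in minoxidil array 2 and 5.22 in minoxidil array 1, against 5.82 and 5.61 in the microsphere arrays. Keratin arrays gave 5.95 and 5.81, and untreated arrays 5.71 and 5.29. Untreated array 2 was thus lower than minoxidil array 2, and untreated array 1 stood between the microsphere arrays. With the array number as a block the ultra-high-sulfur median changed sign, to 0.05.

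Hair keratins themselves did not lie to one side. Of the type I hair keratins, 6 of 7 lay above microsphere array 1 and below microsphere array 2. Of the type II hair keratins, 3 of 5 were below both and 1 above both, with Krt86 at 37.3 with minoxidil, against 39.1 and 40.2 with microsphere keratin. Prr9, a gene of the epidermal differentiation complex, read 197 in minoxidil array 2, against 546 and 312 in the microsphere arrays, and was the lowest of the 7 arrays there. In the inner root sheath, the layer that moulds the growing shaft, 9 of 12 genes lay between the microsphere arrays. Krt27, an inner sheath keratin, read 97.1 with minoxidil, against 177 and 115 with microsphere keratin, and Krt75, the keratin of the companion layer, 126 with minoxidil, against 213 and 148 with microsphere keratin. Both were lower in minoxidil array 2 than in the other 6 arrays of the fit.

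Cell division genes separated the microsphere arrays rather than the treatments. Of 40 tested, 38 were higher in minoxidil array 2 than in microsphere array 1 and lower than in microsphere array 2, 2 were below both and 0 above both. The median log2 difference was 0.42 to microsphere array 1 and -0.29 to microsphere array 2. Mki67 and Top2a were named after their values were seen. Mki67, a marker of cycling cells, read 186 in minoxidil array 2, against 93.5 and 285 in the microsphere arrays. Top2a, the topoisomerase of dividing cells, read 83.8 with minoxidil, against 40.4 and 116 with microsphere keratin. Keratin array 2 and untreated array 2, at 180 and 200 for Mki67, were close to minoxidil array 2. Mcm6, a subunit of the replicative helicase, was one of the 2 genes below both, at 40.5 with minoxidil, against 43.1 and 45.4 with microsphere keratin.

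Transcription factors of the hair matrix, the follicle compartment that feeds the growing shaft, had the same order in 16 of 18 genes. Hoxc13 and Dlx3 were named after their values were seen. Hoxc13, which switches on hair keratin genes, read 180 in minoxidil array 2, against 77.9 and 226 in the microsphere arrays. Dlx3, a homeobox gene of the follicle, read 142 with minoxidil, against 89.0 and 221 with microsphere keratin. Tbx1, a regulator of follicle stem cells in mice, was the 1 gene above both, at 155 with minoxidil, against 71.9 and 140 with microsphere keratin, and was the highest of the 7 arrays. Runx3 was the 1 gene below both, at 35.3 with minoxidil, against 36.9 and 37.5 with microsphere keratin, intensities near the lower end.

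Hedgehog signalling drives growth of the hair follicle. Of its 14 tested genes, 10 lay above microsphere array 1 and below microsphere array 2, 2 were above both and 1 below both. Shh, Ptch1 and Gli1 were named after their values were seen. Shh, the ligand, read 71.3 in minoxidil array 2, against 42.2 and 137 in the microsphere arrays. Its receptor Ptch1, also a target of the signal, read 124 with minoxidil, against 63.1 and 194 with microsphere keratin, and the target and effector Gli1 read 59.2 with minoxidil, against 47.0 and 81.6 with microsphere keratin. Gas1, a co-receptor, was above both at 97.9 with minoxidil, against 89.7 and 69.3 with microsphere keratin. Of 34 genes of Wnt and BMP signalling, 4 were above both microsphere arrays and 9 below both. Lgr4, a receptor for R-spondins, read 138 with minoxidil, against 65.2 and 116 with microsphere keratin, and Tcf7l2, a Wnt effector, 180 with minoxidil, against 111 and 163 with microsphere keratin. Untreated array 2 read 171 for Lgr4, above the minoxidil array, while Tcf7l2 was highest in minoxidil array 2 among the 7 arrays.

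Dermal matrix genes also differed between the microsphere arrays, in the other sense. Of 37 tested, 22 were lower in minoxidil array 2 than in microsphere array 1 and higher than in microsphere array 2, while 10 were below both and 3 above both. The median log2 difference was -0.50 to microsphere array 1 and 0.05 to microsphere array 2. Dcn, decorin, a proteoglycan of collagen fibrils, was below both at 379 with minoxidil, against 737 and 487 with microsphere keratin. Pcolce, an enhancer of procollagen cleavage, read 74.7 with minoxidil, against 156 and 82.0 with microsphere keratin. Col1a1, named after its values were seen, read 285 in minoxidil array 2, against 578 and 247 in the microsphere arrays. Keratin array 1, at 522, was also high for Col1a1. Thbs1, thrombospondin, was above both at 136 with minoxidil, against 98.2 and 107 with microsphere keratin. It ranked 3 of the 7 arrays there, below untreated array 2 at 186 and keratin array 1 at 143.5.

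Macrophage and dendritic cell markers were lower than in microsphere array 1 and near microsphere array 2. Of 20 tested, 11 were below both arrays and 1 above both, and the median log2 difference was -0.71 to the first and -0.04 to the second. Cd74, the invariant chain of antigen presentation, read 106 in minoxidil array 2, against 236 and 133 in the microsphere arrays. Lyz2, a macrophage lysozyme, read 69.3 with minoxidil, against 169 and 75.8 with microsphere keratin. The summed intensity of the list was 1256 in minoxidil array 2, against 2250 and 1316 in the microsphere arrays. Keratin array 1 had the highest sum, 2587, and the remaining 3 arrays of the fit had 1273 to 1379. T cell, mast cell, neutrophil and erythroid markers gave 5, 6, 2 and 1 tested genes at intensities near the lower end, and none had an unadjusted p below 0.05. Endothelial markers had 5 of 11 genes below both microsphere arrays and 0 above both, with medians of -0.18 and 0.06.

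**Figure D4:**
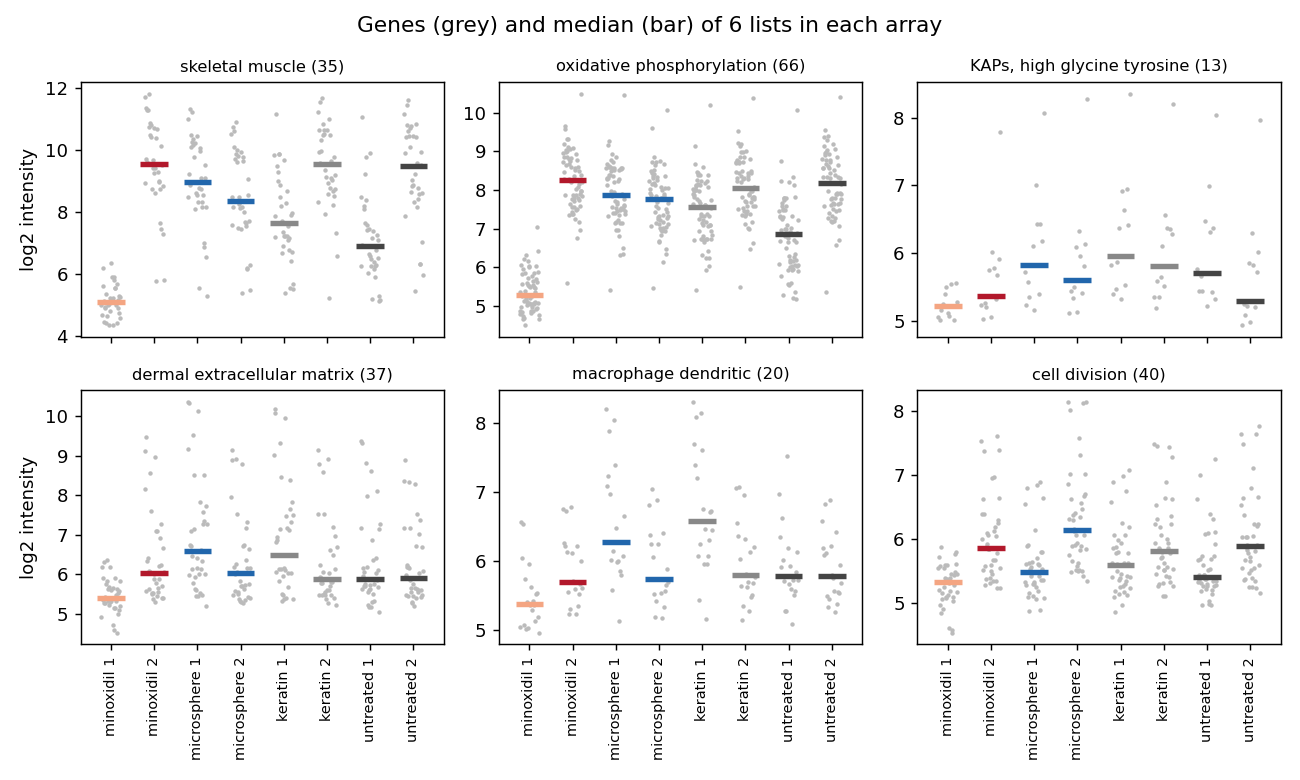
Log2 intensity (vertical) of the genes of 6 lists (grey points) and their median (bar) in each of the 8 arrays, minoxidil arrays at the left. Minoxidil array 2 and keratin array 2 both have a muscle median of 9.55, minoxidil array 2 has a low KAP median, and for dermal matrix and macrophage genes microsphere array 1 and keratin array 1 stand above the rest.

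The epidermis had no common direction across its layers. Of 11 basal layer genes, 8 were above both microsphere arrays and 0 below both, with medians of 0.15 and 0.18. Of all genes tested, 33.8% were above both and 17.3% below both. Krt14, the basal keratin, read 428 in minoxidil array 2, against 386 and 227 in the microsphere arrays, and 2 of its 3 probesets were above both. Col17a1, a collagen of hemidesmosomes, read 116 with minoxidil, against 94.9 and 72.6 with microsphere keratin. Keratin array 1 read 435 for Krt14 and keratin array 2 read 147.5 for Col17a1, both above the minoxidil array. In the suprabasal layers 7 of 26 genes were above both and 9 below both, with Krt1 at 56.7 with minoxidil, against 45.1 and 50.2 with microsphere keratin, and Ivl, the cornified envelope protein involucrin, at 49.8 with minoxidil, against 73.5 and 57.6 with microsphere keratin. Of 8 genes of wounded or stressed epidermis, 5 were below both and 0 above both. Sprr1a, a small proline-rich envelope protein, read 76.4 in minoxidil array 2, against 225 and 91.1 in the microsphere arrays, with 350 in keratin array 1. Sfn, the 14-3-3 sigma gene of keratinocytes, read 63.6 with minoxidil, against 83.3 and 84.8 with microsphere keratin.

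Melanocyte genes, which pigment the growing shaft, had 7 of 14 below both microsphere arrays and 2 above both. Ednrb, the endothelin receptor of the lineage, read 47.7 in minoxidil array 2, against 81.2 and 56.7 in the microsphere arrays. Tyr, tyrosinase, read 36.7 with minoxidil, against 46.7 and 40.0 with microsphere keratin.

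The genes tied to minoxidil gave no common direction either. Of 24 fixed, 19 were named in the files and 13 tested, of which 4 were above both microsphere arrays and 1 below both. The other 6 were too dim to test. The shares above and below both were 30.8% and 7.69%, against 33.8% and 17.3% of all genes. Minoxidil sulfate opens ATP-sensitive potassium channels. Abcc9, the sulfonylurea receptor subunit of vessels and muscle, read 157 in minoxidil array 2, against 111 and 84.1 in the microsphere arrays, and all 3 of its probesets were higher. Its level in the other arrays was 61.7 and 151 with keratin and 54.7 and 142 untreated, the order of the muscle sums. Vegfa, the vessel growth factor, read 61.9 with minoxidil, against 54.8 and 45.8 with microsphere keratin, and Fgf2 50.5 with minoxidil, against 46.1 and 46.1 with microsphere keratin. For Vegfa untreated array 2 read 63.5, above the minoxidil array, while Fgf2 was highest in minoxidil array 2 among the 7 arrays. Fgf7, a growth factor of the dermal papilla, read 37.8 with minoxidil, against 37.2 and 37.5 with microsphere keratin.

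Igf1 was the 1 gene of this list below both, at 49.7 with minoxidil, against 77.9 and 53.1 with microsphere keratin, and 1 of its 3 probesets lay on that side of both arrays. Sult1a1, the sulfotransferase that activates minoxidil, read 55.0 in minoxidil array 2, against 107 and 50.9 in the microsphere arrays. Kcnj11, Fgf10, Plod2, Lox, Ptger4, Ctnnb1 and Hif1a also lay between the microsphere arrays. Of these, Ctnnb1, beta-catenin, read 633 with minoxidil, against 556 and 729 with microsphere keratin, and Lox, lysyl oxidase, 58.7 with minoxidil, against 81.1 and 53.3 with microsphere keratin. The fit's log2 difference was 0.70 ± 0.66 (SE) for Abcc9, 0.30 ± 0.28 (SE) for Vegfa and -0.42 ± 0.43 (SE) for Sult1a1.

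Smooth muscle and pericyte genes had 7 of 12 above both microsphere arrays and 2 below both, with medians of 0.25 and 0.24. This list shares Des with the skeletal muscle list and also holds Abcc9. Synpo2, an actin-binding protein of muscle, read 396 with minoxidil, against 320 and 197 with microsphere keratin, though 2 of its 4 probesets were above both and the other 2, both dim, below both. Keratin arrays 1 and 2 read 95.5 and 290 for Synpo2, and untreated arrays 77.5 and 281.5. Growth factor and vessel genes had 10 of 24 above both and 9 below both, dermal papilla genes 2 and 5 of 13, and bulge genes 7 and 3 of 18. Of all genes tested, 33.8% were above both and 17.3% below both, and the bulge shares of 38.9% and 16.7% were near these. Igfbp5, a binding protein of insulin-like growth factors, read 78.3 with minoxidil, against 98.1 and 97.8 with microsphere keratin, but its second probeset was above both, at 173 with minoxidil, against 149 and 107 with microsphere keratin. Without minoxidil array 1, which read 509 on the first, the second was the brighter one. Corin, a protease of the dermal papilla, read 32.9 with minoxidil, against 35.1 and 38.9 with microsphere keratin, a difference at the lower end of the intensities. The catagen and telogen list, genes of the regressing and resting follicle, had 4 of 17 on each side, and the interferon list 1 of 11 above both and 0 below both.

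Enzymes that act on drugs and steroids were mixed, with 7 of 24 above both microsphere arrays, 3 below both and 12 below microsphere array 1 but above microsphere array 2. Cyp2b19, an epoxygenase of keratinocytes, read 82.8 in minoxidil array 2, against 36.7 and 62.0 in the microsphere arrays. The esterase gene Aadac read 46.4 with minoxidil, against 35.4 and 39.0 with microsphere keratin. Both were highest in minoxidil array 2 among the 7 arrays.

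Clock genes, which vary with the hour of sampling, had 12 of 17 above both microsphere arrays and 0 below both, with medians of 0.17 and 0.21. For all genes the shares were 33.8% and 17.3%. Dbp, an output gene of the clock, read 167 in minoxidil array 2, against 129 and 104 in the microsphere arrays, and untreated array 2 read 181. The hour of sampling is not given in the sources used here. Noct, nocturnin, a clock-controlled phosphatase, had the largest downward difference by the naming rule, at 109.9 in minoxidil array 2, against 207 and 245 in the microsphere arrays. Its second probeset did not share that direction, at 76.9 in minoxidil array 2, against 53.9 and 77.3 in the microsphere arrays. The first also read 2327 in minoxidil array 1, where the second read 41.8.

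Heat shock genes had 8 of 20 above both microsphere arrays and 1 below both, with medians of 0.36 and -0.01. The share above both was 40%, near the 33.8% of all genes, and that below both 5%, against 17.3%. Bag3, a co-chaperone, read 86.8 with minoxidil, against 66.2 and 56.6 with microsphere keratin, and Hspd1, the mitochondrial chaperonin, 166 with minoxidil, against 110.4 and 135 with microsphere keratin.

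Ribosomal protein genes were lower, with 29 of 45 below both microsphere arrays and 1 above both. The 1 above both was Rpl3l, a form of striated muscle, at 109 in minoxidil array 2, against 81.2 and 59.1 in the microsphere arrays. The medians were -0.15 and -0.13 on the log2 scale. Rpl19 read 554 with minoxidil, against 655 and 640 with microsphere keratin, and Rps7 read 724 with minoxidil, against 910 and 827 with microsphere keratin. For Rps7 and Rpl12, 1 of 2 probesets lay below both arrays.

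Other genes among the lowest by the naming rule were of mixed kind. Hp, haptoglobin, a haemoglobin-binding protein of fat and liver, read 93.8 in minoxidil array 2, against 180 and 128 in the microsphere arrays, and was the lowest of the 7 arrays. Cfd, adipsin, a protease of fat cells, was likewise lowest, at 144 with minoxidil, against 315 and 177 with microsphere keratin. In the white fat list 8 of 22 genes were above both and 4 below both. These shares of 36.4% and 18.2% were near the 33.8% and 17.3% of all genes. Ifitm2, an antiviral membrane protein, read 94.9 with minoxidil, against 154 and 133 with microsphere keratin, and Csta1, a protease inhibitor of the cystatin family, 46.8 with minoxidil, against 65.3 and 65.9 with microsphere keratin. Tuba1a, an alpha-tubulin, read 184 with minoxidil, against 324 and 248 with microsphere keratin. BC094435, of unsure function, read 444 with minoxidil, against 1662 and 650 with microsphere keratin, and 2584 in minoxidil array 1. Mrpl52, a mitochondrial ribosomal protein, read 352 with minoxidil, against 467 and 467 with microsphere keratin, but 1 of its 4 probesets was below both and 1 above both.

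Minoxidil array 1 gave another picture. Of the genes tested, 65.8% were below both microsphere arrays and 22% above both, 14.6% at least 2-fold below and 0.641% at least 2-fold above. Its log2 difference to microsphere array 1 had an SD of 0.85 over genes, and that to minoxidil array 2 an SD of 0.92. Taken alone in limma, with 3 residual degrees of freedom and the assumption that it varies like the other groups, it gave 366 genes higher (3.26%) and 1101 lower (9.8%) at an adjusted p below 0.05.

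Genes abundant in the other arrays were those lowest in minoxidil array 1. Tnnc2, a troponin of fast muscle, read 40.4 in minoxidil array 1, against 2366 and 1914 in the microsphere arrays, and Acta1 read 31.4 in minoxidil array 1, against 2054 and 1453 in the microsphere arrays. Aldoa, an aldolase of glycolysis, read 32.3 in minoxidil array 1, against 2016 and 1380 in the microsphere arrays. Car3, a carbonic anhydrase of muscle and fat, read 40.1 in minoxidil array 1, against 2497 and 1742 in the microsphere arrays. All 45 ribosomal protein genes, all 66 oxidative phosphorylation genes and all 35 muscle genes were below both microsphere arrays. Of these, limma called 38, 33 and 13 lower, with median log2 differences of -3.67, -2.45 and -3.53.

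A few probesets were bright in that array. Cul4a, a scaffold of a ubiquitin ligase, read 2093 in minoxidil array 1, against 61.2 and 88.1 in the microsphere arrays, a log2 difference of 4.83 ± 1.10 (SE, limma adjusted p = 0.0349). Untreated array 2 read 325 for Cul4a, and minoxidil array 2 read 65.2. Another of the 3 Cul4a probesets was bright too, at 1917 in minoxidil array 1, against 57.1 and 78.2 in the microsphere arrays. The remaining Cul4a probeset was below both, at 36.5 in minoxidil array 1, against 47.2 and 65.7 in the microsphere arrays. Bzw2, a regulator of translation, read 1350 and 47.6 in minoxidil arrays 1 and 2, against 63.7 and 59.8 in the microsphere arrays. Its other probeset, brighter in the mean of the other arrays, went the other way, at 44.3 and 96.8 in minoxidil arrays 1 and 2, against 64.5 and 84.0 in the microsphere arrays. Acer2, a ceramidase of the Golgi, read 776 and 70.6 in minoxidil arrays 1 and 2, against 60.9 and 69.6 in the microsphere arrays, while its second probeset was below both, at 38.1 in minoxidil array 1, against 43.4 and 41.2 in the microsphere arrays. X83313 and Phxr5, of unsure function, read 1111 and 646 in minoxidil array 1, against 42.3 to 48.0 for X83313 and 37.9 to 40.9 for Phxr5 in the microsphere arrays. The sources of this signal were not tested.

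The arrays of the minoxidil group seldom shared a side. Both minoxidil arrays were above both microsphere arrays for 603 genes (5.37%) and below both for 895 (7.97%). The 13 high-glycine-tyrosine keratin-associated proteins were below in both arrays, as were 29 of 45 ribosomal proteins and 10 of 20 macrophage and dendritic genes. Minoxidil array 1, with its weak signal, was itself below for all 13, all 45 and 17 of 20, and for 65.8% of all genes. These shared counts therefore add little to those of minoxidil array 2, which were 13, 29 and 11. Of the 27 sebaceous genes 1 was above in both, Scd1 reading 64.6, Elovl4 54.0 and Fa2h 90.2 in minoxidil array 1. Of the muscle genes 0 of 35 were above in both. With both arrays in the fit, 78 of the 170 named genes had a difference of the other sign than without array 1.

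**Figure D5:**
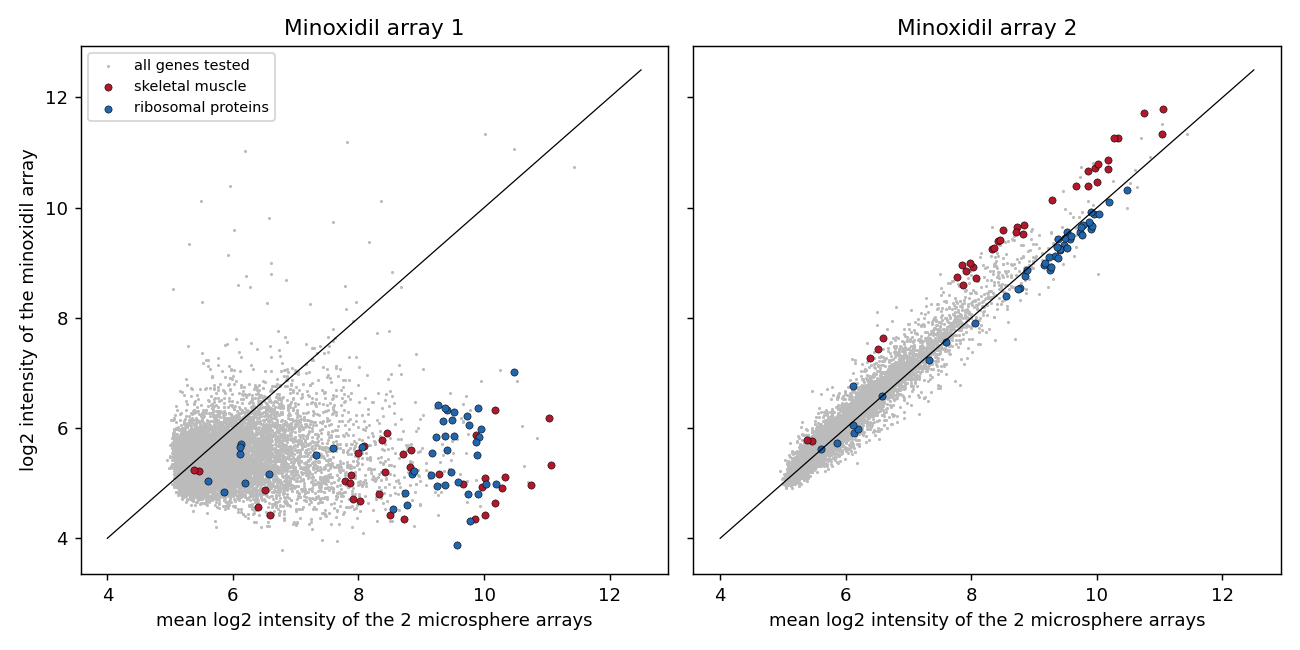
Log2 intensity of minoxidil array 1 (left) and minoxidil array 2 (right) on the vertical axis, against the mean log2 intensity of the 2 microsphere arrays, 1 point per gene with a line of equality. Muscle and ribosomal protein genes lie far below the line in minoxidil array 1, while in minoxidil array 2 all muscle genes lie above the line and ribosomal protein genes close to it.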

How the data were processed

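RNA of treated skin (9.4 µg per array, per the labels' protocols) was hybridised to Affymetrix mouse arrays. The submitters' processing notes name RMA, Affymetrix Expression Console and Transcriptome Analysis Console, with no versions. Linear intensity of 45141 probesets is given in the deposited value table. Its lowest values are 13.8 to 22.5 per array, a background that compresses differences of dim genes. In the comparison tables the authors deposited are log2 values and a signed fold change, a score with no replicate behind it. The p-values in the authors' deposited tables were not used. The table named for minoxidil array 1 repeats all 9387 rows of the microsphere table, so no authors' values of that array were used.

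Gene names came from the authors' tables: of 28918 listed probesets, 23804 have 1 symbol, 844 several and 4270 none. Each gene was read from its brightest probeset by mean over 8 arrays, and 11235 of 14980 genes passed a filter at the 25th percentile of that mean. RefSeq (GRCm38.p6), used for names only, held 10550 of these symbols as current and 383 as synonyms. Intensities were put on the log2 scale and fitted with limma 3.58.1 in R 4.3.3 (lmFit, eBayes with trend, Benjamini-Hochberg, threshold 0.05). The fit was also run on simulated data with independent errors and no shifts of whole arrays. That run does not show which differences the fit could call in these arrays. Python 3.11.15 and matplotlib 3.10.9 drew the figures. Named genes were the 12 in each direction with the largest smaller difference to both microsphere arrays, up to 4 per list by the same measure, 5 in each direction for minoxidil array 1, and all tested minoxidil genes, leaving out predicted genes. The comparison and its 40 gene lists were chosen with earlier results of these data known. No pair of arrays was identical. Alternatives changed the background, scaling, filter, probeset rule, variance model and array weights, left out arrays, or took the array number as a block. Some genes that the naming rule selects are not reported here.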

Additional observations from a re-analysis of the deposited data

How the results depend on the processing

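The counts of called genes stayed at 0 in both fits under every alternative run, with 2 exceptions. The first was the 7-array fit without untreated array 1 and keratin array 1, a choice made after seeing the data, where Defb8 and Tmem45b were called higher. Only the microsphere arrays then gave the spread. Keratin array 1, left out there, read 104 for Defb8, above minoxidil array 2 at 102. The log2 difference of Defb8 stayed at 1.20, while its SE went from 0.54 to 0.21. Leaving out keratin array 1 alone, or untreated array 1 alone, gave no such call. The call therefore depends on leaving out both of these arrays. In the 8-array fit, leaving out 1 array at a time gave 0 to 366 genes higher and 0 to 1101 lower, the upper ends without minoxidil array 2. The count of genes at least 2-fold higher in minoxidil array 2 was 7, and 3 after quantile normalization or normexp at offset 50. With probesets chosen by their mean over 7 arrays without minoxidil array 1, an alternative added after seeing the data that changed the probeset of 180 genes, it was 6, without Elovl4. Leaving out a microsphere array gave 41 to 92 genes higher and 4 to 45 lower, and minoxidil array 1 in place of array 2 gave 72 and 1638. Quantile normalization gave 1 gene lower. Same-numbered arrays deviated together at r = 0.206 to 0.594 over the pairs of groups without minoxidil. Pairs with minoxidil, which rest on its weak array 1, gave 0.112 to 0.564. With only 2 numbers and no label on what they mean, same-numbered arrays were not taken as pairs. The fit with the replicate number as a block called 0 genes, with 43 higher and 4 lower at an unadjusted p below 0.05.

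The size of many differences depended on the block. Of 161 named genes 87 came out smaller by over 1.5 times with it, among them Fabp3 (0.29, and 1.03 without the block), Tpm1 (0.18 and 0.98), Smpx (0.56 and 1.29) and Txlnb (0.53 and 1.09). Tpm1 was 0.32 with the mean of probesets. Of 40 list medians 14 moved by more than the spread of the microsphere arrays with the block, 11 with quantile normalization and 11 and 10 without microsphere array 1 and 2. In the same order, 12, 6, 12 and 4 changed sign. With the block the median was 0.14 for fatty acid synthesis (0.28 without it), 0.06 for peroxisomes (0.18), -0.13 for high-glycine-tyrosine proteins (-0.30) and -0.14 for macrophages (-0.38), and 0.30 for the sebaceous list (0.33).

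Single genes changed sign in these cases. With probesets chosen over 7 arrays Igfbp5 became 0.45 and Stat5b 0.055. With the mean of all probesets Igfbp5 became 0.064, Rpl12 0.025 and Plod2 0.00474. With the block Met became -0.00186, Rrm1 0.032, Plvap 0.069, Trac 0.036, Hsp90ab1 -0.14, Lox 0.096, Ptger4 -0.13 and Hif1a 0.027. Trac became 0.011 and 0.023 with normexp at offsets 50 and 16. Leaving out 1 microsphere array at a time gave -0.96 to 0.11 for Sult1a1, -0.0103 to 0.21 for Kcnj11, -0.0599 to 0.11 for Fgf10, -0.23 to 0.059 for Plod2, -0.47 to 0.14 for Lox, -0.19 to 0.52 for Ptger4, -0.20 to 0.19 for Ctnnb1 and -0.42 to 0.064 for Hif1a. The cause was not tested. The remaining background compresses the differences of dim genes.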
